A study of Rattus norvegicus with 4 samples.

Results

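The genes described here are 9 genes of the synapse, taken by name from a fixed list of symbols: the scaffold genes Dlg2, Dlg3 and Dlg4, the membrane fusion genes Snap25, Stx1a and Vamp2, the vesicle protein genes Syp and Syn1, and the active zone gene Pclo. They are 9 of the 16881 symbols in the count tables, and all 9 were listed there once. The study cultured rat neural stem/progenitor cells (NSPCs), labelled WT, on a bare platform named PUCL or on a conductive hybrid platform named PUCL@CNT1, and asked how the platform bears on differentiation into neurons. Cells of every group spent 24 h in a medium that keeps them stem-like, called maintenance medium here. In 2 of the groups they were then moved to B-27 Plus neuronal medium for a further 1.5 d (differentiation medium below). Medium and culture time therefore changed together and cannot be told apart. Rat strain, animal age, number of cultures and pooling were not given in the sources used here. Each of the 4 combinations was 1 library, so no group had replicates. Libraries are given below in the order PUCL maintenance, PUCL@CNT1 maintenance, PUCL differentiation and PUCL@CNT1 differentiation. They were made from 500 ng of total RNA with a kit that reads the 3' ends of polyadenylated transcripts, and held 6035848 to 6855984 counts each.

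At a chemical synapse, the presynaptic cell releases transmitter when vesicles fuse with its plasma membrane. Vamp2 on the vesicle pairs with Stx1a (syntaxin) and Snap25 on the plasma membrane to form the SNARE complex that drives fusion. Syp (synaptophysin) and Syn1 (synapsin) are proteins of the vesicle, and Pclo (piccolo) is a large scaffold of the active zone where release takes place. On the postsynaptic side, Dlg2, Dlg3 and Dlg4 encode membrane-associated guanylate kinases (MAGUKs) that hold glutamate receptors and signalling proteins in place. These proteins are used as markers of maturing neurons, although some of the genes are also transcribed in cells without synapses.

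Only 1 of the 9 genes changed by a test. Dlg4 fell with the switch to differentiation medium, and it was also the member counted most deeply. Vamp2 stayed between 362 and 432 counts in every library. Syn1 was lower in differentiation medium on PUCL, at 98 counts against 317. Dlg3, Snap25, Stx1a and Pclo each had counts in 2 or 3 of the libraries and 0 counts in the PUCL@CNT1 differentiation library. Dlg2 had 6 counts in 1 library only, and Syp had no count in any library. The plot of counts by library shows all 36 values.

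**Figure D1:**
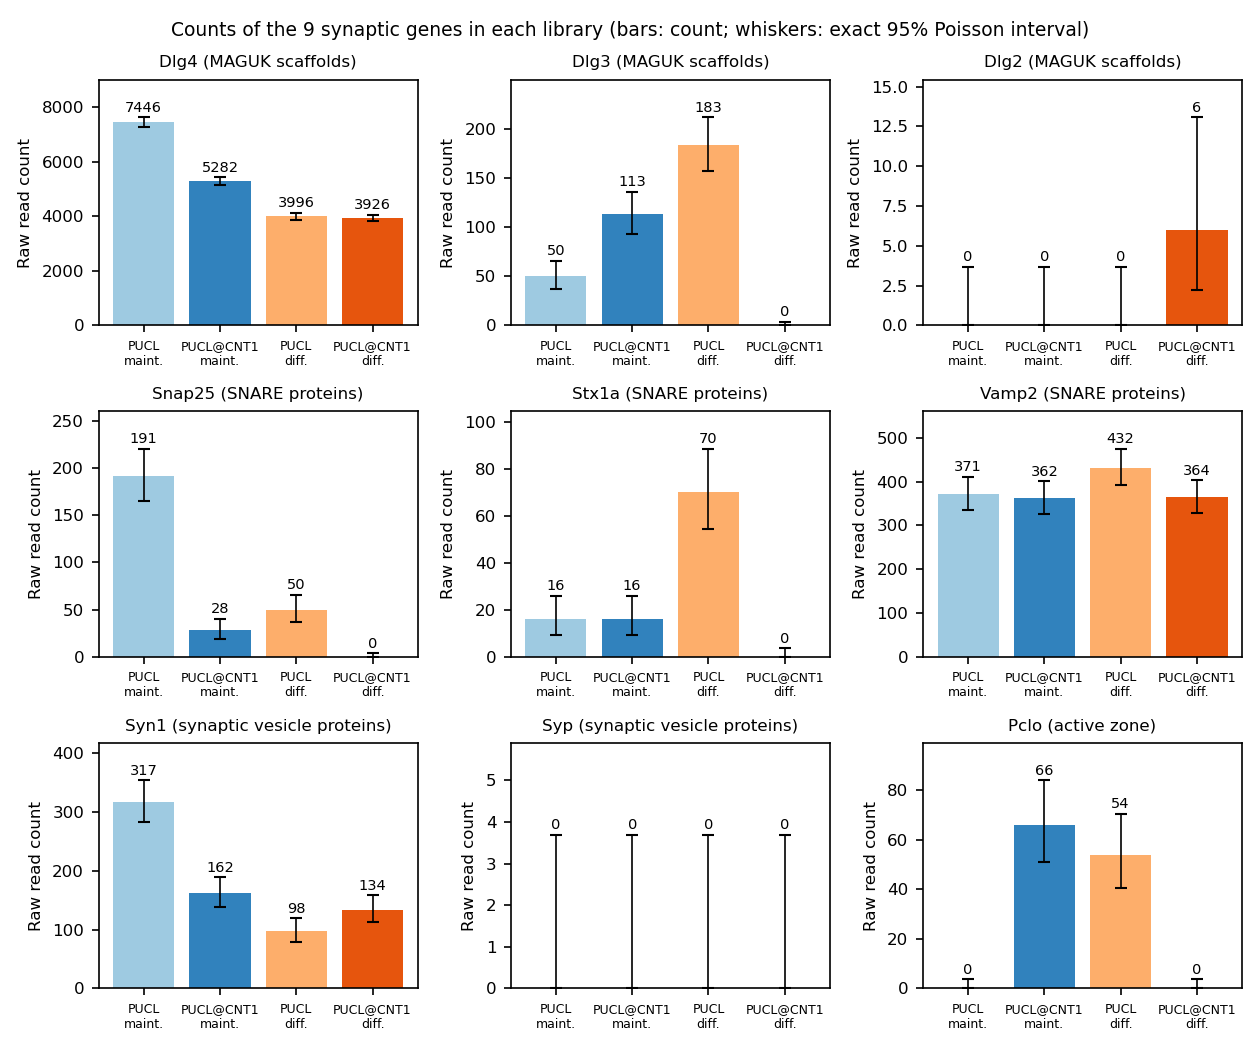
Raw read counts (vertical axes, each starting at 0) of the 9 synaptic genes in the 4 libraries; bars are counts and whiskers are exact 95% Poisson intervals, which cover counting error only. Dlg4 is lower in both differentiation libraries, Vamp2 is nearly level, and Dlg3, Snap25, Stx1a and Pclo stand at 0 in the PUCL@CNT1 differentiation library.

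The promoters of 4 members are shown because these genes span the patterns seen in the counts: Dlg4 passed the test, Syn1 was lower on PUCL, Vamp2 was nearly level and Syp had no count. Each is the stretch from 250 bases before to 50 bases after the annotated start in RefSeq on the GRCr8 build, printed 5' to 3' on the gene's strand. Sequences were at hand for 7 of the 9 members. Capitals mark matches, on either strand, to 5 short motifs: GGGCGG (the GC box bound by Sp1), TGACGT (the core of the cAMP response element), TATAAA (the TATA box), CAGCACC (the left part of the element bound by the neuronal gene repressor REST) and CAGCTG (an E-box).
Dlg4, chr10:55239534-55239833, plus strand: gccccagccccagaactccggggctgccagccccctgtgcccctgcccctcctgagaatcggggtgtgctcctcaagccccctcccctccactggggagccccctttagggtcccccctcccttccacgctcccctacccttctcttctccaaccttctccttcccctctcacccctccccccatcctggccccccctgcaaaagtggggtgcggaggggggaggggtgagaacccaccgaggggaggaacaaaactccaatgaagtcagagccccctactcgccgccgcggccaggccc
Syn1, chrX:3725495-3725794, plus strand: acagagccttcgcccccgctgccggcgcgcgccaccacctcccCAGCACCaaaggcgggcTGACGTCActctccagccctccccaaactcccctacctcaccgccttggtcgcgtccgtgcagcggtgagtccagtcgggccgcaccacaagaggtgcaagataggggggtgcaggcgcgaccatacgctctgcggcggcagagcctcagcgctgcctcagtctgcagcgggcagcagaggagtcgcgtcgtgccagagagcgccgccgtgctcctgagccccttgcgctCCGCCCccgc
Vamp2, chr10:54292539-54292838, plus strand: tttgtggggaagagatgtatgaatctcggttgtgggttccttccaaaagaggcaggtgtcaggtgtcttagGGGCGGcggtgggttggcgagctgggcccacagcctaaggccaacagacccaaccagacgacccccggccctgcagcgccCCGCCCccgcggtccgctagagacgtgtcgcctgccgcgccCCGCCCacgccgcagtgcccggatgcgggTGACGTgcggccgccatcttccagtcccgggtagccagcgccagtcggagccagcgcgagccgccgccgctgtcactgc
Syp, chrX:17536400-17536699, minus strand: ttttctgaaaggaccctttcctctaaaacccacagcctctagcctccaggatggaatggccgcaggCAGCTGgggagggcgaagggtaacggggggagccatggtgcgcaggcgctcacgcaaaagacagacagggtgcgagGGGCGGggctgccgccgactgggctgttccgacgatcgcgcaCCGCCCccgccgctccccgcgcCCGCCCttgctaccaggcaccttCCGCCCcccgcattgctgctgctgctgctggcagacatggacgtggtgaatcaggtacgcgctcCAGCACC
The Dlg4 window held none of these 5 motifs. A GC box lay in the windows of 5 of the 7 members (Pclo, Vamp2, Stx1a, Syn1 and Syp), against 33.1% of the 33469 promoters of this length in RefSeq. The cAMP response element core was found in Vamp2 and Syn1, against 7.94% of promoters, and in Syn1 it occurred on both strands at overlapping positions. CAGCACC was found in Syn1 and Syp, against 6.78% of promoters. The E-box was found in Syp, against 15.1%. No member held TATAAA, which is in 14.2% of promoters. GC content was 67 to 71% in 6 of the 7 windows and 42.3% in that of Dlg2, against a median of 51.7% over all promoters. GGGCGG is made of G and C only. Shares among promoters of like GC content were not computed, so the GC boxes are not read as a trait of these genes. A match is a string of letters in these windows and was not measured as a bound site.

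Dlg4 encodes PSD-95, the main scaffold of the excitatory postsynaptic density. It stood at 7446, 5282, 3996 and 3926 counts. As counts per library size (CPM, with TMM scaling as edgeR computes it) these are 1129, 846, 618 and 591. Both maintenance libraries lay above both differentiation libraries, and the PUCL maintenance library was the highest. In differentiation medium the scaled count was 1.83-fold lower on PUCL (95% interval 1.76 to 1.90) and 1.43-fold on PUCL@CNT1 (1.37 to 1.49). These intervals are exact binomial (Clopper-Pearson) ones on the ratio of 2 counts and leave out scatter between cultures. In edgeR's quasi-likelihood test over the 4 libraries, with platform as a second term, Dlg4 fell by 0.69 on the log2 scale (SE 0.18, adjusted p 0.0116, lower on 2 of 2 platforms). Dlg4 was 1 lower call and there were 0 higher calls among the 9 members, of which 7 were tested and 2 had an unadjusted p under 0.05 (Dlg4 and Snap25). Over all 10516 genes tested, 1.02% were called lower and 1.80% higher. The fall of Dlg4 was not called when platform was left out of the fit (adjusted p 0.131), when genes averaging under 50 counts were dropped (0.0862), or when any 1 library was left out together with the platform term. Without the PUCL maintenance library its fitted change was -0.48 (edgeR adjusted p 0.898), without PUCL@CNT1 maintenance -0.90 (0.533), without PUCL differentiation -0.74 (0.134) and without PUCL@CNT1 differentiation -0.68 (0.169).

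Between platforms Dlg4 differed less. It was 1.34-fold lower on PUCL@CNT1 than on PUCL in maintenance medium (95% interval 1.29 to 1.38). In differentiation medium it was 1.05-fold lower there (1.00 to 1.09). The fitted platform difference was -0.24 on the log2 scale (SE 0.18, edgeR adjusted p 0.984). The platform difference was not beyond the spread that the fit assigns to single libraries.

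The other MAGUK genes had far fewer counts. Dlg3 encodes SAP102, a scaffold of NMDA receptors in young neurons. It stood at 50, 113, 183 and 0 counts, or 7.58, 18.1, 28.3 and 0 CPM. The highest and the lowest value were both in differentiation medium. On PUCL the count was 3.73-fold higher in differentiation medium (95% interval 2.72 to 5.21), and on PUCL@CNT1 it was at least 40.1-fold lower, with the 0 set at 3 counts. Such a bound takes the other count as it stands, without error. The edgeR medium test, which counts a change on 1 platform as spread, gave an adjusted p of 0.886.

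Dlg2 encodes PSD-93, a close relative of PSD-95. It had 0, 0, 0 and 6 counts and was not tested, since no library reached 10 counts. The floor used for a count of 0 was 3 counts, which is 0.451 to 0.480 CPM in these libraries. The whiskers in the plot of counts by library use the two-sided 95% Poisson interval, whose upper limit for a 0 is the slightly larger 3.69 counts. Dlg2 was therefore at or near the limit of detection throughout.

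Among the SNARE genes, Vamp2 (synaptobrevin) was nearly level, while the counts of its plasma membrane partners ranged widely. Vamp2 stood at 371, 362, 432 and 364 counts, or 56.3, 58.0, 66.8 and 54.8 CPM. Its values in the 2 media overlapped. The medium ratio was 1.19-fold on PUCL (95% interval 1.03 to 1.37) and 0.945-fold on PUCL@CNT1 (0.815 to 1.10). Its fitted medium change was 0.08 on the log2 scale (SE 0.39, edgeR adjusted p 0.992), and its fitted platform difference was -0.12 (SE 0.39, adjusted p 1.00).

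Snap25 stood at 191, 28, 50 and 0 counts, or 29.0, 4.48, 7.73 and 0 CPM. On each platform it was lower in differentiation medium, and in each medium it was lower on PUCL@CNT1. For the bare platform the differentiation library was 3.75-fold lower (95% interval 2.73 to 5.22), and for PUCL@CNT1 it was lower by at least 9.93-fold. Between platforms, PUCL@CNT1 was 6.46-fold lower in maintenance medium (4.33 to 9.98) and at least 17.1-fold lower in differentiation medium. With an unadjusted p of 0.0241 for medium and 0.00675 for platform in edgeR, neither difference passed after adjustment (adjusted p 0.286 and 0.328). Values in the 2 media overlapped, since 28 counts in a maintenance library lie below 50 in a differentiation library.

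Stx1a stood at 16, 16, 70 and 0 counts, or 2.43, 2.56, 10.8 and 0 CPM. The platforms were equal in maintenance medium and farthest apart in differentiation medium. Its medium ratio was 4.46-fold on PUCL (95% interval 2.57 to 8.23), and on PUCL@CNT1 the differentiation library was at least 5.68-fold lower. The edgeR adjusted p was 0.983 for medium and 1.00 for platform.

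Of the vesicle protein genes, Syn1 was detected in every library and Syp in none. Syn1, which tethers vesicles into a reserve pool, stood at 317, 162, 98 and 134 counts, or 48.1, 25.9, 15.2 and 20.2 CPM. Both maintenance libraries lay above both differentiation libraries, as for Dlg4. In differentiation medium it was 3.17-fold lower on PUCL (95% interval 2.52 to 4.02) and 1.29-fold lower on PUCL@CNT1 (1.02 to 1.63). The fitted medium change was -1.01 on the log2 scale (SE 0.60, edgeR adjusted p 0.569), so it did not pass the test. In maintenance medium Syn1 was 1.85-fold lower on PUCL@CNT1 (1.53 to 2.25), and in differentiation medium 1.33-fold higher there (1.02 to 1.74). In RefSeq on GRCr8, Timp1 and Araf overlap the Syn1 gene. The strand setting of the counting was not given in the sources used here, so reads of these genes may not be told apart from those of Syn1. Timp1 itself had 2987, 3894, 2237 and 3837 counts, and Araf had 175, 230, 315 and 341.

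Syp, whose product is among the most abundant proteins of the vesicle membrane, had 0 counts in all 4 libraries, each with the same floor of 3 counts (0.451 to 0.480 CPM). No ratio can be given for it.

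Pclo stood at 0, 66, 54 and 0 counts, or 0, 10.6, 8.35 and 0 CPM. It was present on PUCL@CNT1 before the switch and on PUCL after it. With differentiation it was higher by at least 18.4-fold on the bare platform, and lower by at least 23.4-fold on PUCL@CNT1. Set against PUCL, the PUCL@CNT1 library held at least 23.2-fold more Pclo in maintenance medium and at least 18.5-fold less in differentiation medium. The edgeR adjusted p was 1.00 for medium and for platform, since the 2 pairs run in opposite directions.

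**Figure D2:**
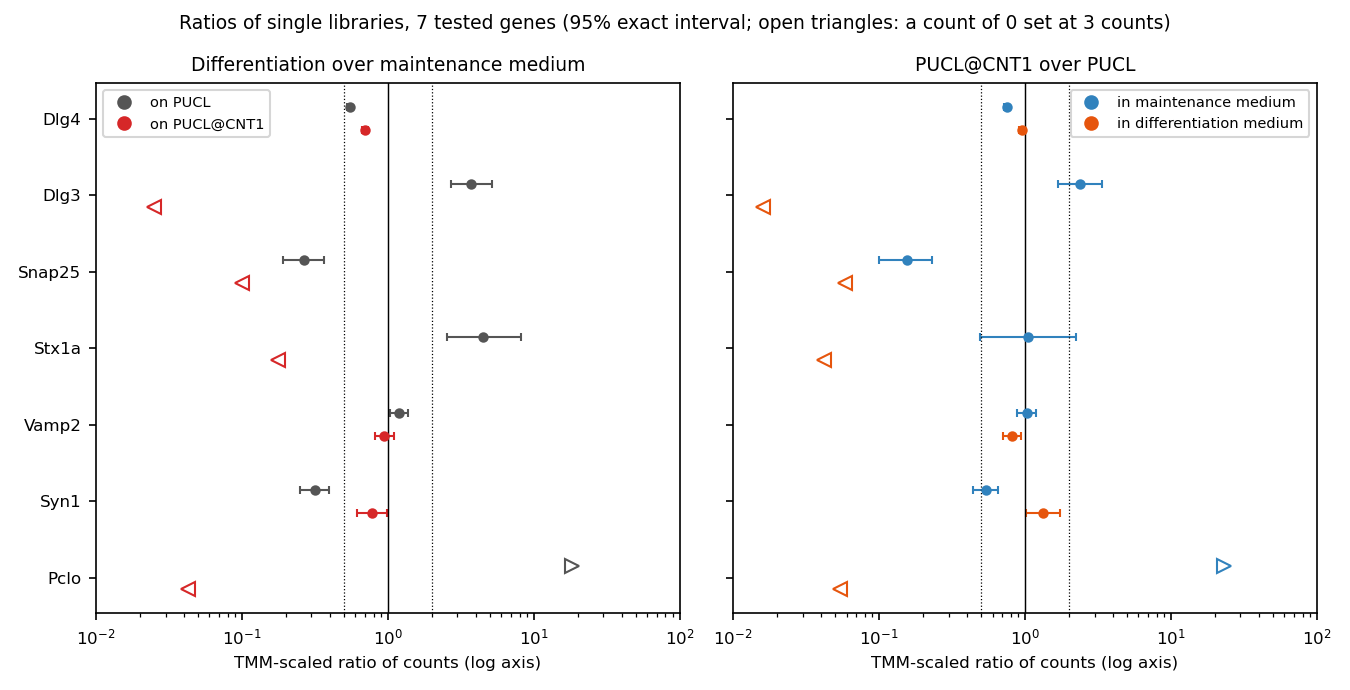
TMM-scaled ratios of single libraries (horizontal log axes) for the 7 tested genes, by medium on each platform (left) and by platform in each medium (right); points carry exact 95% intervals, open triangles are bounds with a 0 set at 3 counts, and dotted lines mark a 2-fold difference. Vamp2 and Dlg4 lie inside the dotted lines in all 4 pairs, and Dlg3, Stx1a and Pclo lie on opposite sides in the left panel.

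Single pairs of libraries were called by a size rule, under which the TMM-scaled ratio had to reach 2-fold, with the nearer end of its 95% interval past 1.5-fold. This compares 2 libraries, not 2 conditions, and carries no p-value. On PUCL, Dlg3, Stx1a and Pclo were higher in differentiation medium and Snap25 and Syn1 lower, which makes 3 higher and 2 lower of the 9 members. Of all tested genes, 16.1% were higher and 15.3% lower in that pair. On PUCL@CNT1, 0 members were higher and 4 were lower (Dlg3, Snap25, Stx1a and Pclo), against 16.5% and 14.5% of all tested genes. In maintenance medium, Dlg3 and Pclo were higher on PUCL@CNT1 and Snap25 lower, against 12.2% and 13.9% of tested genes. In differentiation medium, 0 members were higher on PUCL@CNT1 and the same 4 that stood at 0 were lower, against 15.2% and 15.6%. The 4 pairs share libraries: each library enters 2 of them, so the PUCL@CNT1 differentiation library with its 4 zeros sets both counts of 4. In edgeR, 0 of the 7 tested members were called between platforms (1 had an unadjusted p under 0.05, Snap25; limma-voom also called 0), against 0.209% of tested genes called higher and 0.247% called lower on PUCL@CNT1.

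Dlg3, Stx1a and Pclo were past this size rule in opposite directions on the 2 platforms, higher with differentiation on PUCL and lower on PUCL@CNT1. This pattern was held by 210 of the 10516 tested genes (2.00%), and by 4 of the 110 other synaptic genes described below. The 2.00% covers genes of every depth, whereas the lower ratio of each of these members rests on a 0. A share among genes of like count was not computed. Snap25 was the member lower by the rule on both platforms, a pattern of 3.53% of tested genes. The median log2 ratio of the 7 tested members, with zeros at 3 counts, was 0.25 on PUCL and -2.50 on PUCL@CNT1, beside 0.03 and -0.02 over all tested genes (there with a prior count of 0.5). These counts and medians leave out Dlg2 and Syp, which did not pass the filter, and are a description, not support for a change of the group.

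**Figure D3:**
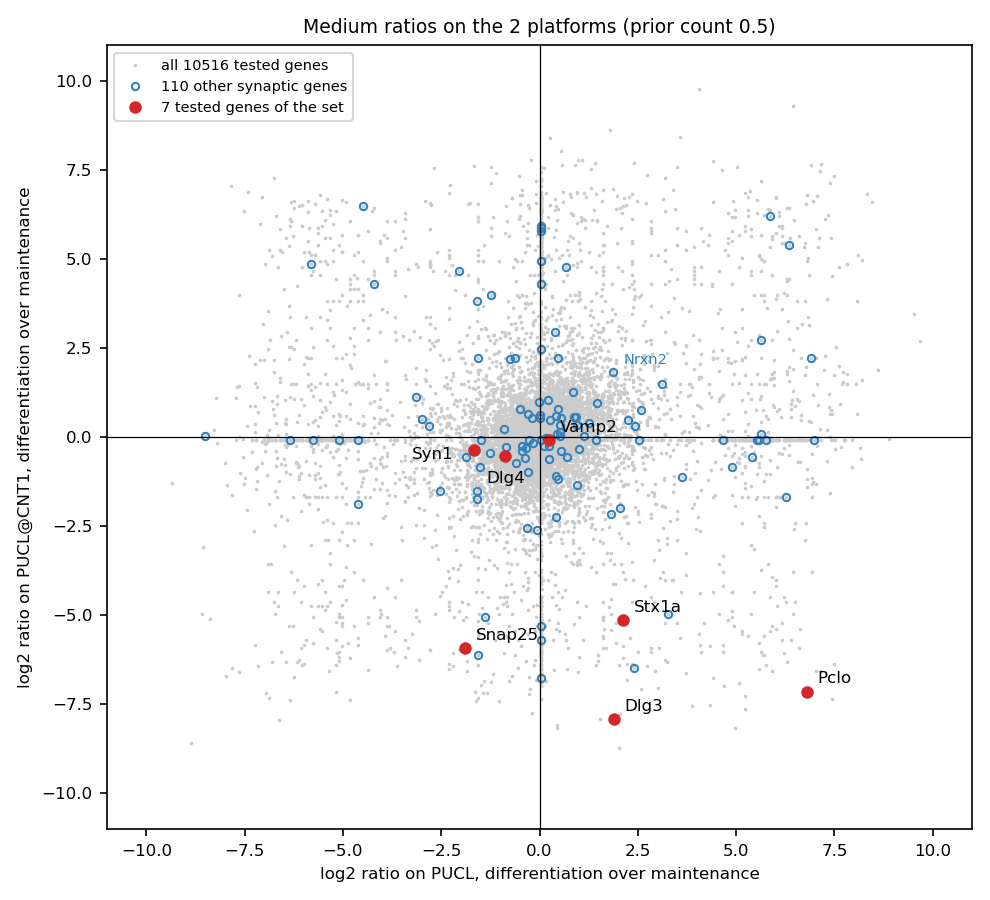
Log2 ratios of differentiation over maintenance medium (prior count 0.5) on PUCL (horizontal) and PUCL@CNT1 (vertical) for all 10516 tested genes (grey), 110 other synaptic genes (blue) and the 7 tested genes of the set (red). Dlg4, Syn1 and Vamp2 lie near the centre; Dlg3, Stx1a and Pclo lie at the lower right, and Snap25 at the lower left.

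How often a gene of like size had a count of 0 bears on these 4 zeros. Stx1a and Pclo had a highest count of at least 50 and under 100, and 38% of the 1318 genes in that band had a 0 in at least 1 library. For Dlg3 and Snap25 it was at least 100 and under 200, where 7.58% of 1675 genes had a 0 somewhere. In the PUCL@CNT1 differentiation library itself, 11.6% of genes in the lower band and 1.67% in the higher band were at 0, less than in each of the other libraries. That library had the most counts of the 4. A 0 in some library was thus more common in the band of Stx1a and Pclo than in that of Dlg3 and Snap25. Pclo was at 0 in 2 libraries, and the share of genes with 2 zeros was not computed. Dlg3 and Snap25 peaked at 183 and 191 counts, near the top of their band, so its share may be too high for them. Of the genes that peaked at 200 counts or more but under 500, the band of Syn1 and Vamp2, 0.45% had a 0 in any library.

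**Figure D4:**
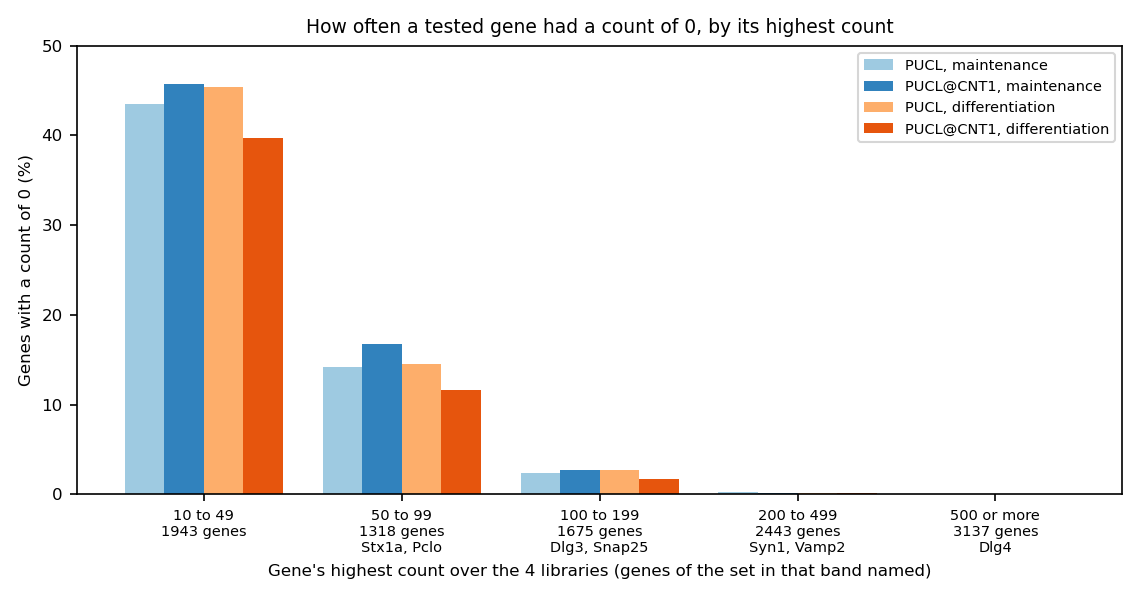
Share of tested genes with a count of 0 (vertical axis, percent) in each of the 4 libraries, by the gene's highest count over the libraries (horizontal axis, with the number of genes and the members in each band). The share is 39.7 to 45.7% for genes in the lowest band and 1.67 to 2.75% for those that peak at 100 counts or more but under 200, the band of Dlg3 and Snap25.

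Beyond the 9 members, 152 further genes of release, scaffold, receptor and vesicle recycling were listed by role. The tables held 148 of them, 30 had no count and 110 were tested. In edgeR, 1 of these 110 was called with differentiation medium (8 had an unadjusted p under 0.05, and limma-voom called 2). Between platforms edgeR called 0 (3 had an unadjusted p under 0.05, and limma-voom called 0). By the size rule, 25.5% were higher and 20% lower with differentiation on PUCL, and 20% and 17.3% on PUCL@CNT1, in each case above the shares of all tested genes given above. Of the 110, 21, 29, 19 and 20 were at 0 in the 4 libraries. Shares for genes of like count were not computed, so the excess is not read as a trait of synaptic genes. Their median log2 ratios were 0.08 on PUCL and 0.01 on PUCL@CNT1, or 0.08 and -0.09 with zeros set at 3 counts, so the sign on PUCL@CNT1 depends on how zeros are treated. In differentiation medium 28.2% were lower and 12.7% higher on PUCL@CNT1 than on PUCL, with a median of -0.47, beside 15.6% and 15.2% of all tested genes. In maintenance medium 20% were lower and 11.8% higher there, with a median of -0.11, beside 13.9% and 12.2%.

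Of 13 tested receptor and adhesion genes, edgeR called 1 with medium, and it rose (2 had an unadjusted p under 0.05, and limma-voom called 2). Nrxn2, a presynaptic adhesion protein of the neurexin family, stood at 352, 380, 1268 and 1444 counts and rose by 1.86 (SE 0.30, edgeR adjusted p 6.92e-06, higher on 2 of 2 platforms). Its rise was of nearly the same size on PUCL (log2 ratio 1.88) and PUCL@CNT1 (1.83). Camk2b, the most counted gene of the list, had 14922, 11237, 10811 and 9220 counts. Its fitted medium change was -0.41 (SE 0.15, edgeR adjusted p 0.138). NMDA receptors bind the scaffolds of the Dlg genes. Their subunit genes in the list, Grin1, Grin2a, Grin2b and Grin2d, were at 0 in all 4 libraries. Glutamate receptor genes of the Gria family did have counts. Gria1 stood at 44, 4, 57 and 37 counts and Gria2 at 1368, 1306, 1590 and 919. Gria3 stood at 476, 418, 624 and 668 counts and Gria4 at 54, 43, 188 and 10. The receptor genes of both families were chosen after their values were seen.

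In the other lists, edgeR called 0 of 97 tested genes with medium (6 had an unadjusted p under 0.05, and limma-voom called 0). Among 24 SNARE machinery genes, Vamp3, a relative of Vamp2 found in many cell types, had 1523, 1160, 1184 and 1006 counts (edgeR adjusted p 0.785 for medium), and Cplx2, a complexin that binds the SNARE complex, had 422, 371, 551 and 184 (0.925). Cplx2 was highest on PUCL and lowest on PUCL@CNT1 in differentiation medium. Among 8 calcium sensor genes, Doc2a stood at 122, 89, 66 and 79 counts and Syt11 at 68, 64, 8 and 98. Among 14 vesicle membrane and Rab genes, Sv2a, a vesicle glycoprotein, had 349, 254, 659 and 346 counts (edgeR adjusted p 0.561 for medium), and Scamp1 had 497, 476, 202 and 372 (0.340). Among 17 active zone genes, Rims2, a Rab3-binding scaffold that works beside Pclo, had 261, 132, 89 and 79 counts (0.548). Both differentiation libraries lay below both maintenance libraries for Rims2, as for Syn1. Ppfia1 (liprin) had 369, 205, 240 and 133 (0.752). Among 19 postsynaptic scaffold genes, Homer1 had 528, 414, 278 and 513 counts (0.907) and Sipa1l1 had 329, 242, 377 and 534 (0.617). Dlg1, the fourth gene of the PSD-95 family, had 72, 32, 19 and 23 counts and was chosen after its values were seen. Among 15 endocytosis genes, Cltc, the clathrin heavy chain, had 2303, 2670, 1647 and 2420 counts (0.604), and the adaptor subunit Ap2m1 had 1048, 614, 837 and 1025 (0.951).

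The 3 genes whose pattern over the 4 libraries was most like that of Dlg4 were Tgfb1i1, Tpst1 and Fam50a, among 6203 other genes averaging 100 counts or more. Likeness was the root mean square distance of log2 CPM values centred on each gene's mean. It was 0.0286 for Tgfb1i1 (968, 660, 527 and 507 counts), 0.0340 for Tpst1 (356, 239, 192 and 184) and 0.0401 for Fam50a (508, 351, 254 and 252). All 3 were lower in both differentiation libraries, which follows from how they were picked. None is in the synaptic lists above.

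Markers of cell types show what the libraries held beside these genes. Of the labelled cell type, Nes (2420, 2363, 3461 and 3714 counts), Sox2 and Vim were present in every library, while Msi1 was at 0 in all. The list summed to 6628, 7025, 8257 and 10800 CPM, and 3 of its 9 tested genes rose with medium in edgeR (Vim, adjusted p 0.0321, Fabp7, 0.000491, and Hes1, 0.0103). Most of that sum was Vim (28449, 29953, 31121 and 50754 counts). Sox9 and Notch1 also had more counts in both differentiation libraries than in both maintenance libraries. Sox2 (4219, 3989, 6301 and 3879), Pax6 (53, 21, 246 and 19) and Prom1 (36, 16, 73 and 7) were highest on PUCL and lowest on PUCL@CNT1 in differentiation medium. Hes5 had 2, 0, 0 and 0 counts. Of 12 neuron markers 11 had counts, with Nefl at 0, and edgeR called 0 of them with medium (3 had an unadjusted p under 0.05, and limma-voom called 0). Their summed level was 498, 427, 321 and 271 CPM, most of it from Gap43 and Elavl4, and so was lower in both differentiation libraries, as Dlg4 and Syn1 were. Single neuron markers ran in different directions. Both differentiation libraries lay below both maintenance libraries for Gap43 (1375, 815, 496 and 679 counts) and Elavl4 (979, 939, 733 and 428). The same held for Map2 (552, 614, 407 and 238), Stmn2 (48, 22, 1 and 1) and Rbfox3 (29, 1, 0 and 0). They lay above for Ncam1 (27, 0, 53 and 117), Nefm (25, 6, 50 and 117) and Dcx (48, 39, 79 and 61). Values in the media overlapped for Tubb3 (28, 20, 25 and 62), Mapt (171, 157, 213 and 100) and Elavl3 (0, 56, 16 and 0). The endothelial, mural and fibroblast list summed to 1098, 778, 503 and 394 CPM, with Pecam1, Cdh5, Rgs5 and Dcn at 0. Most of it was Acta2, a smooth muscle actin, which fell by 1.10 on the log2 scale with medium (edgeR adjusted p 1.96e-05), in the same direction as Dlg4. The oligodendrocyte list stood at 923, 828, 1503 and 1490 CPM, and 3 of its 8 genes rose with medium (Olig1, Mbp and Cnp). The astrocyte list stood at 543, 549, 1079 and 632 CPM. Its highest sum came with S100b (683, 534, 3939 and 761 counts), which edgeR called higher with medium (adjusted p 0.000279) and lower on PUCL@CNT1 (0.00578). Both calls lean on the PUCL differentiation library. The medium log2 ratio of S100b was 2.56 on PUCL and 0.42 on PUCL@CNT1. Its platform log2 ratio was -0.28 in maintenance and -2.41 in differentiation medium. Clu also rose with medium (edgeR adjusted p 0.000501). Gja1, the most counted marker of the list, had 2388, 2357, 1963 and 2289 counts. Aldoc (349, 226, 473 and 148) was highest on PUCL and lowest on PUCL@CNT1 in differentiation medium. The other astrocyte markers had few counts or none: Gfap 0, 19, 31 and 0, Aqp4 0, 0, 12 and 0, Aldh1l1 12, 0, 0 and 0, and Slc1a2 0 in all. Of 6 microglia markers 5 were at 0 throughout. The neuroendocrine secretory list summed to 306, 284, 412 and 361 CPM, and its member Scg2, a granin of dense core vesicles, fell with medium (edgeR adjusted p 0.000273) while Cpe, a carboxypeptidase that processes neuropeptides, rose (0.00939). The part of these cell types in the fall of Dlg4 was not tested. In bulk libraries, fewer cells of a type and less RNA per cell cannot be told apart.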

How the data were processed

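Values are raw counts per gene symbol, which the authors deposited without normalization as 1 table per library. The rn6 build and the tools Bowtie2 and bedtools are named in the submitters' processing notes. Versions, annotation, strand setting and filters are not given in the sources used here, so antisense and overlapping genes may not be told apart. Entries of one symbol were summed (149 symbols had several entries, 0 of them members). A gene was tested where any library reached 10 counts, which held for 10516 of 16881 symbols, among them 7 of the 9 members. Tests across all genes used edgeR 4.0.16 (glmQLFit and glmQLFTest, TMM scaling, R 4.3.3) with medium and platform as additive terms over the 4 libraries. This leaves 1 residual degree of freedom and borrows spread from other genes (87.2 prior degrees of freedom). P-values were adjusted by Benjamini-Hochberg over all tested genes at 0.05, and they measure spread between libraries, which may be technical. A standard error is the fitted log2 change divided by the square root of its F value. Fitted changes of genes with a count of 0 depend on the prior count and are not read as sizes. Ratios of 2 libraries carry exact 95% Clopper-Pearson intervals (scipy 1.17.1). Reads have no molecular identifiers, so intervals and floors of 3 counts cover counting error only. The edgeR step was tested on simulated data with medium changes planted in genes averaging 100 counts or more. It recovered 66% of log2 changes of 2 and 85% of those of 3, and called 0.0872% of unchanged genes. No change was planted in genes counted like Dlg3, Snap25, Stx1a and Pclo, so recovery there was not tested. DESeq2 1.42.0 and limma 3.58.1 (voom) were among the alternatives. Of each further list, genes past the edgeR threshold are named, and otherwise the 2 with the highest mean count. Of the further lists and markers, 2 genes are not reported here, and the lists' counts and sums leave them out. The members, lists and tests were chosen with earlier results of these data known. Symbols of all 9 members matched RefSeq (GRCr8), which was used for names, overlaps and promoter sequences only.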

Additional observations from a re-analysis of the deposited data

Results flagged for a closer look

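Dlg3, Stx1a and Pclo are singled out because the medium ratio ran in opposite directions on the 2 platforms, past the size rule on each. The difference between platforms was not tested, since each ratio rests on 2 single libraries. Dlg3 had a ratio of 3.733 on PUCL and, with its 0 set at 3 counts, 0.02495 on PUCL@CNT1. Stx1a had 4.463 on PUCL and 0.1762 on PUCL@CNT1, and Pclo had 18.36 and 0.04271, also with each 0 set at 3 counts.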

How the results depend on the processing

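All results rest on 1 library per group, and genes peaking under 100 counts often had a 0 in some library. The fall of Dlg4 with differentiation medium was called in 6 of 12 alternatives and kept its direction in all 12. The platform term compares the media within each platform, and no replicate block could be added to it, since each group was 1 library. Genes called for medium (296) numbered 64 with a mean of 50 counts or more, 170 in DESeq2, 176 with the platform term left out, and 25 to 263 when single libraries were left out together with that term (35 without PUCL maintenance). With total counts 139 were higher and 121 lower, against 189 and 107. Genes called for platform (48) numbered 18 with RLE size factors, 27 with total counts, 25 with no filter, 87 in limma-voom, 36 in DESeq2, 0 with a mean of 50 counts or more (554 with an unadjusted p under 0.05), 0 with the medium term left out (388 unadjusted), and 0 to 27 when libraries were left out (0 without PUCL differentiation, with 356 unadjusted, and 24 without PUCL@CNT1 maintenance). A looser size rule (1.5-fold, nearer bound 1.2-fold) gave 4935 genes for medium on PUCL@CNT1, 4150 for platform in maintenance medium and 4896 for platform in differentiation medium. Fitted medium changes turned for Dlg3 (-1.92) to 0.43 in limma-voom and 0.14 without the platform term, and for Stx1a (-1.29) to 0.78 and 1.11; none of these was called and the cause was not tested. With single libraries left out, fitted medium changes spanned -9.39 to 1.13 for Dlg3, -7.03 to 2.10 for Stx1a, -8.11 to 7.78 for Pclo and -0.06 to 0.22 for Vamp2, with 0.90 for Dlg3 without PUCL@CNT1 maintenance, 1.07 for Stx1a without PUCL maintenance and 0.65 for Pclo without PUCL@CNT1 differentiation. Platform differences spanned -9.88 to 0.26 for Dlg3, -0.64 to 0.22 for Dlg4, -1.05 to 0.60 for Syn1, -0.25 to 0.01 for Vamp2 and -7.78 to 8.11 for Pclo, with 0.02 for Dlg3 without PUCL@CNT1 differentiation and -0.66 for Pclo without PUCL maintenance. In such fits Snap25 and Dlg3 were called lower for medium without PUCL differentiation (edgeR adjusted p 0.00964 and 0.0383) and for platform without PUCL@CNT1 maintenance (0.0251 and 0.0289), each against a lone library at 0. Left-out libraries also moved Snap25 the other way: its fitted changes spanned -9.76 to -0.21 for medium and -9.92 to -1.78 for platform, both smallest in size without PUCL maintenance (adjusted p 0.998 and 0.982). Member counts by the size rule were the same under RLE size factors and total counts, and the looser rule added Dlg4 to the lower members for medium on PUCL (3 in all) and Syn1 to those for platform in maintenance medium (2 in all).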
